A study of Citrus sinensis and Citrus junos and Citrus trifoliata with 12 samples.

Results

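Gene expression was compared between the roots and the leaves of grafted orange trees that stood on one rootstock, Ziyang xiangcheng (Citrus junos, written Cj). The comparison rests on 4 of the 12 RNA-seq libraries of the series. They are the 2 libraries of root and the 2 libraries of leaf from Cj+LL trees, chosen by their labels, and no other library was used. The crown of these trees was 'Lane Late' navel orange (Citrus sinensis, written LL), so the root libraries hold rootstock RNA and the leaf libraries hold scion RNA. Organ and species therefore differ together and cannot be told apart. The trees went into the ground in 2009 in one orchard, the RNA was sequenced in 2015, and every library carries the stage label 140 DAF. The series title names saline-alkali stress, but the labels give no treated and untreated groups, and all 4 libraries come from the same kind of orchard tree. The submitters call the 2 libraries of an organ biological replicates and do not say how many trees they stand for. The p-values below therefore set the difference between root and leaf against the spread between these libraries of one organ. That spread may be technical.

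Roots anchor the tree, take up water and mineral ions, and load them into the xylem. Leaves capture light, fix carbon dioxide and export sugar through the phloem. In citrus grafting the rootstock supplies the root system and is chosen for its tolerance of soil and disease, while the scion bears the fruit. In bulk tissue a lower level can come from fewer cells of a type or from less RNA per cell, and these cannot be told apart.

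The files do not pair gene IDs with gene names, and 0 of the 25060 IDs listed in these libraries matched the RefSeq table of sweet orange (assembly DVS_A1.0). Genes are therefore given by ID, without a stated function, and the organ labels were not checked against marker genes. Root and leaf libraries were counted on one set of IDs. A gene whose reads from Citrus junos align poorly to that set reads as low in roots, and the part of this in the results was not tested.

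The root libraries held 9629543 and 9901863 estimated counts, and the leaf libraries held 11261359 and 10655671. Fewer genes were listed in roots, 21828 and 21793, than in leaves, 22379 and 22232. The biological coefficient of variation between replicates was smaller in roots, 4.56% against 13.4% in leaves, each organ fitted alone. Over all genes tested, the share at least 2-fold apart between replicates was not smaller in roots, at 3.58% against 3.29% in leaves. Across genes, Pearson's r of log2 CPM (counts scaled to a common library size, after TMM, a correction for differences in composition) was 0.989 between the root libraries and 0.986 between the leaf libraries. It was 0.41 to 0.43 between a root and a leaf library. These r values are a description, since the points are genes of the same libraries. Among the 12130 genes with a mean log2 CPM of 3 or more, 0.379% in roots and 1.08% in leaves were at least 2-fold apart between replicates.

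Root RNA was concentrated in fewer genes than leaf RNA. The single most abundant gene held 10.5% and 8.92% of all counts in the root libraries, and 0.722% and 0.818% in the leaf libraries. The 100 most abundant genes held 24.2% ± 0.918 of root counts and 14.3% ± 0.116 of leaf counts (SD, n = 2 each). It took 797 and 827 genes to hold 50% of the counts in the root libraries, and 1597 and 1591 in the leaf libraries. Both root libraries lay apart from both leaf libraries in each of these measures. With 2 libraries against 2 an exact permutation test (two-sided) cannot give a p below 0.333, so these shares are given without a test. Setting the top gene of each library aside left the order in place, with 1065 ± 9.90 genes holding 50% of counts in roots and 1623 ± 1.41 in leaves (SD, n = 2 each).

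**Figure D1:**
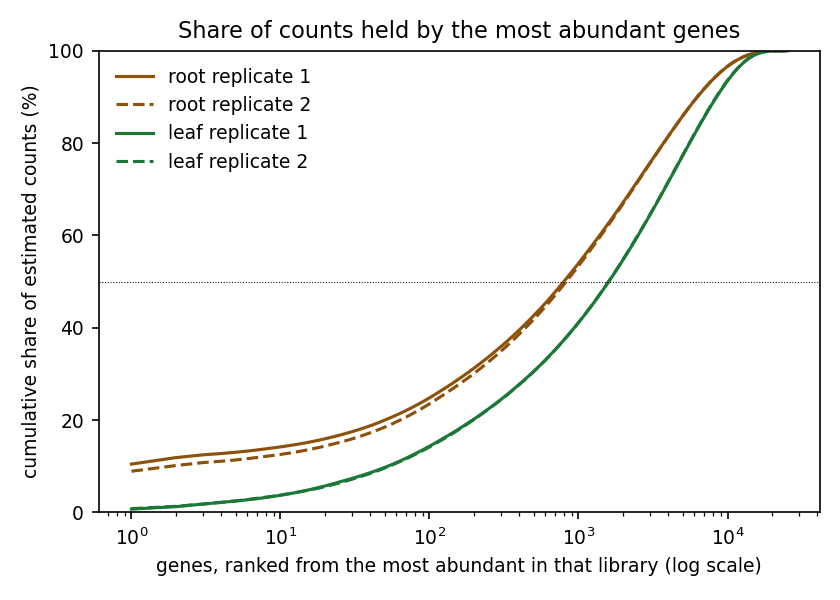
Cumulative share of estimated counts (y axis, %) against the number of genes counted from the most abundant (x axis, log scale) in each of the 2 root and 2 leaf libraries. The dotted line marks 50%, which the root curves cross at 797 and 827 genes and the leaf curves at 1597 and 1591.

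The gene behind the steep start of the root curves was Cs7g25130. Its CPM was 122341 and 103219 in the root libraries and 216 and 281 in the leaf libraries. Root values lay far above leaf values with no overlap, although in leaf too the gene was well detected, with 2824 and 3476 counts. The log2 fold change (root minus leaf) was 8.83 ± 0.36 (SE; Benjamini-Hochberg adjusted p = 8.4e-08 from the quasi-likelihood test of edgeR over the whole table), a 454-fold difference. The gene has one listed transcript, of 4416 bases. Per length its level was 23415 and 19950 FPKM (the unit the authors scaled for gene length and library size) in roots against 56.0 and 72.9 FPKM in leaves. Because the gene is long, it held less of the summed FPKM than of the counts, 3.84% ± 0.455 in roots (SD, n = 2).

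In leaves the most abundant gene was Cs6g18680. Its CPM was 6226 and 7045 in the leaf libraries and 0.607 and 0.234 in the root libraries. The root values rest on 5 and 2 counts, so the gene was close to silent there. The log2 fold change was -13.92 ± 0.31 (SE, adjusted p = 6.9e-09, same test), with a 95% interval from -14.63 to -13.20. With 1 library left out it ran from -14.72 to -13.39, in part outside that interval. On the FPKM scale the leaf level was 4690 and 5315, below that of Cs7g25130 in roots.

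The top 10 and top 100 genes of the organs were almost entirely different, and the top 1000 less so. None of the 10 most abundant genes of roots was among the 10 of leaves (0 shared), and 8 of the top 100 and 280 of the top 1000 were shared. Between replicates of one organ the overlap was much larger. The root libraries shared 10 of 10, 95 of 100 and 965 of 1000, and the leaf libraries shared 7 of 10, 89 of 100 and 901 of 1000.

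Most tested genes differed between root and leaf. Of 19919 genes tested, 16685 (83.8%) were called at an adjusted p under 0.05 by the edgeR test. Of these, 7987 (40.1% of those tested) were higher in root and 8698 (43.7%) were higher in leaf. Each called gene had both libraries of one organ above both of the other. This was also the case for 1688 of the 3234 genes that were not called (52.2%), and for 18373 of all genes tested (92.2%). In a test against a 2-fold difference in place of no difference (glmTreat on the same fit), 5123 genes (25.7%) passed as higher in root and 6066 (30.5%) as higher in leaf. The calls held under other settings for most genes. In all 16 fits with other scalings, filters, tools or 1 library left out, the main one included, 5855 genes stayed called higher in root and 7179 higher in leaf.

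**Figure D2:**
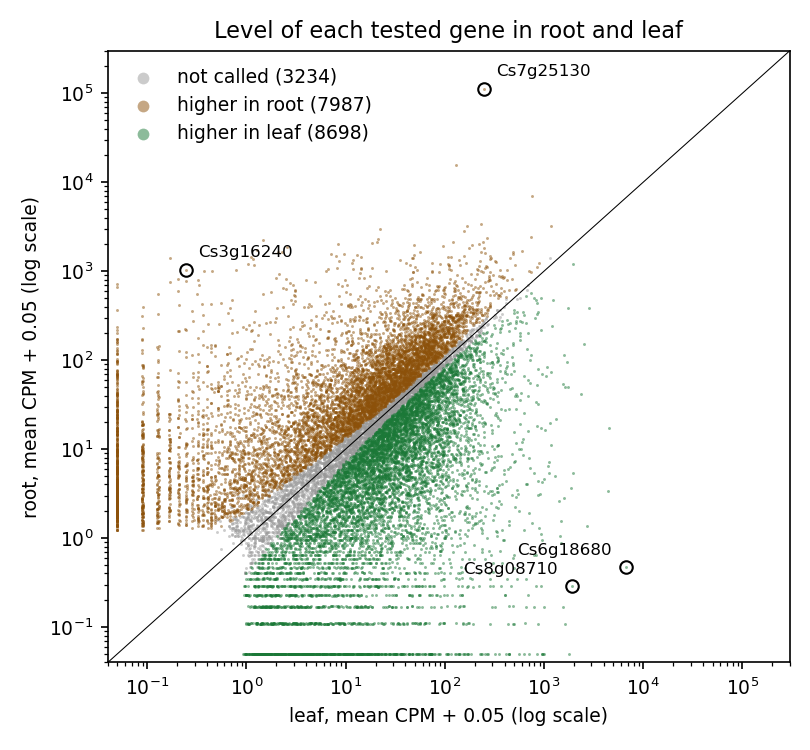
Mean CPM of each tested gene in root (y axis) and leaf (x axis), both log scale after adding 0.05, with colours for the 7987 genes called higher in root, the 8698 called higher in leaf and the 3234 not called. The line marks equal levels, circles mark the 4 named genes, and the strips along the left and bottom edges are genes with few or no counts in one organ.

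The differences were large. The median absolute log2 fold change over all genes tested was 1.56, and the middle of the distribution, between its quartiles, ran from -1.86 to 1.30. Called and at least 4-fold apart were 3462 genes higher in root (17.4% of those tested) and 4734 higher in leaf (23.8%). At 16-fold the numbers were 1630 and 2209, and at 256-fold 480 and 599. More genes were higher in leaf than in root at each of these sizes. The lean to leaf held in each scaling tried, and its size moved with the scaling. Library sizes without TMM shifted the median log2 fold change of all genes by -0.43 and gave 6483 genes higher in root and 10366 higher in leaf. The TMM factors were 0.857 and 0.865 in roots against 1.16 and 1.16 in leaves.

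**Figure D3:**
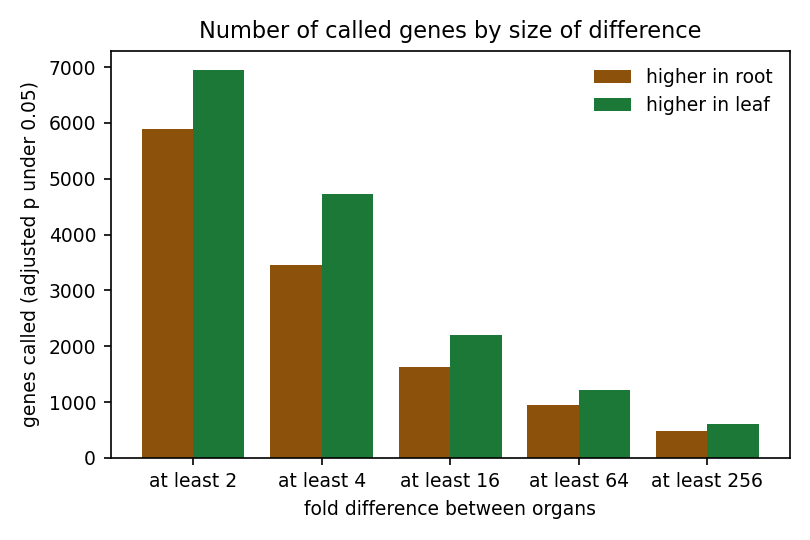
Number of genes called (y axis) that were at least 2, 4, 16, 64 or 256-fold higher in root or in leaf (x axis). Leaf bars stand above root bars at each size, from 6947 against 5895 at 2-fold to 599 against 480 at 256-fold.

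The 3462 genes at least 4-fold higher in root made up 48.1% and 47.3% of the counts of the root libraries and 4.69% and 4.27% of those of the leaf libraries. The 4734 genes at least 4-fold higher in leaf made up 39.8% and 40.9% of leaf counts and 1.91% and 1.90% of root counts. These classes were chosen on the same counts, so the shares are a description. Each set took a large part of the counts of its own organ and a small part of those of the other. In the root set Cs7g25130 alone held 10.5% and 8.92% of all root counts. The 3234 genes not called held 8.0% and 8.07% of root counts and 10.9% and 10.7% of leaf counts.

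The largest fold change among genes that the lower organ still showed by more than 3 counts was that of Cs3g16240 for root. Its CPM was 1006 and 1076 in the root libraries and 0.306 and 0.0808 in the leaf libraries, where it had 4 and 1 counts. The log2 fold change was 12.29 ± 0.25 (SE), with adjusted p = 6.5e-09 in the edgeR test, and its 95% interval ran from 11.71 to 12.86. With 1 library left out it ran from 11.66 to 13.43, in part outside that interval. The root libraries lay close together and both far above leaf. The gene has one listed transcript, of 1165 bases, and its root level was 747 and 807 FPKM.

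For leaf the matching gene, after Cs6g18680, was Cs8g08710. Its CPM was 1852 and 1932 in the leaf libraries and 0.121 and 0.351 in the root libraries, on 1 and 3 counts. The log2 fold change was -12.89 ± 0.26 (SE, adjusted p = 6.5e-09, same test), with a 95% interval from -13.47 to -12.30. With 1 library left out it ran from -13.80 to -12.35, in part outside that interval. The gene has 4 listed transcripts, and its leaf level was 1129 and 1189 FPKM. For Cs3g16240, Cs6g18680 and Cs8g08710 the low organ is near its detection limit, so the size of the fold rests on a handful of counts. The standard errors and 95% intervals of these 3 folds are too narrow for so few counts. The level in the high organ is well measured.

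Many genes were listed in one organ alone. There were 1137 genes with a value in both root libraries and in neither leaf library, and 1400 with the reverse. Most of these were barely detected, with a median of 8.74 counts in root and 10.7 in leaf. With at least 20 counts in both libraries of the organ the numbers were 350 for root and 506 for leaf, and with at least 100 counts 130 and 236. The excess of leaf over root was present at each of these minimums. After each library was thinned to 9629570 counts there were 1195 root and 1366 leaf genes. Thinning makes the totals equal, but not the depth left for scarce genes. By the TMM factors, 0.857 and 0.865 in roots against 1.16 and 1.16 in leaves, that depth stayed lower in roots. The part of this in the leaf excess was not tested. The most abundant gene with no leaf count stood at 725 CPM in root, and the most abundant with no root count at 1785 CPM in leaf. A gene with no listed value is below the limit set by depth, which for a count of 0 is 3 counts per library, and counting intervals cover counting error only.

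More genes reached a moderate level per length in leaf, and slightly more reached a high level in root. At least 10 FPKM were reached by 8169 and 8147 genes in the root libraries and by 10599 and 10606 in the leaf libraries. At least 100 FPKM were reached by 1041 and 1067 genes in roots and by 972 and 949 in leaves. At least 1000 FPKM were reached by 30 and 31 genes in roots and by 23 and 26 in leaves. The order of the organs thus turned between the 10 and the 100 FPKM mark, and at each mark the root values did not overlap the leaf values. These FPKM are scaled by library size without TMM. The numbers at each mark and the place of the turn depend on that scaling, and FPKM with TMM were not tested.

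The direction of the calls followed the level in the same way. Among the 3849 genes with a mean over 64 CPM, 58.2% were called higher in root and 32.2% higher in leaf. Among the 5291 genes at 4 to 16 CPM, 32.1% were higher in root and 49.99% higher in leaf. The median log2 fold change was 0.65 over 64 CPM and -0.54 at 4 to 16 CPM. With library sizes not scaled by TMM the values over 64 CPM were 49.1% higher in root and 40.3% higher in leaf, and at 4 to 16 CPM 25.6% and 57.6%. The lean to root among abundant genes and to leaf among scarcer ones thus had the same direction under both scalings. The classes were the same in both, and the change of scaling shifts all folds by a similar amount. The gap between the classes is therefore not a separate result without TMM. The classes were also cut on the mean of the same root and leaf CPM that give the folds, so these shares are a description. At 16 to 64 CPM the sides were close with TMM, at 40.3% and 44.6%, and not without it, at 30.5% and 55.3%.

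**Figure D4:**
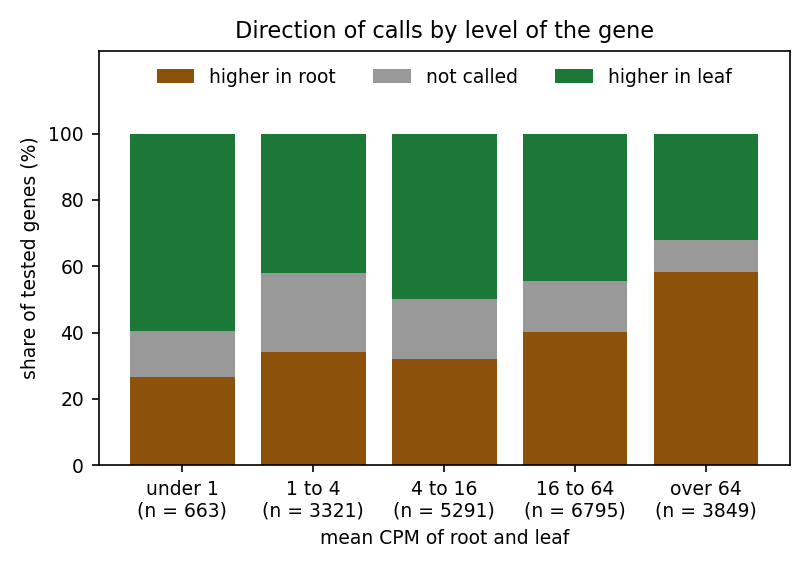
Share of tested genes (y axis, %) called higher in root, not called, and called higher in leaf, in 5 classes of mean CPM over root and leaf (x axis, with the number of genes in each). The root share is 58.2% in the class over 64 CPM and lies between 26.5% and 40.3% in the other classes.

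A minority of genes had similar levels in both organs. For 4204 genes (21.1% of those tested) the 95% interval of the log2 fold change lay within 1 on either side of 0, which is a 2-fold difference. For 1131 of them (5.68% of those tested) it lay within 0.5. These 1131 genes had a median level of 46.3 CPM in root and 45.9 CPM in leaf, above the medians of 12.4 and 16.7 CPM over all genes tested. A narrow interval needs counts, so scarce genes cannot enter this class. Of the 1131 genes 47 were called (4.16%), and of the 4204 genes 45.8% were, against the 83.8% over all genes tested. An interval within a 2-fold difference thus does not mean that no difference was called.

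The 1131 genes of similar level had a greater median length and more often several listed transcripts than genes that differed strongly. Neither was used directly to choose the genes. A longer gene gives more counts at the same level per length, so length also enters the choice through the counts. For a gene with several transcripts the deposited length also varies with the library, and its mean over the libraries was taken. The median length was 2122 bases for the 1131 similar genes, 1448 for the 3462 genes at least 4-fold higher in root, 1554 for the 4734 at least 4-fold higher in leaf and 1690 for all genes tested. Several transcripts were listed for 61.5% of the similar genes, 20.7% of the root genes, 30.7% of the leaf genes and 37.3% of all tested. Since a narrow interval needs counts, level enters these values. Within the class of 16 to 64 CPM the median length was 2081 bases for 670 similar genes, 1507 for 824 genes at least 4-fold higher in root, 1805 for 1360 at least 4-fold higher in leaf and 1867 for all 6795 tested there. Several transcripts were listed for 59.4%, 24.8%, 44.1% and 48.9% of them. Over all called genes the median length was 1687 bases in both directions, and among called genes whose mean log2 CPM was 3 or more it was 1827 bases for root and 1887 for leaf.

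Large differences were scarcer among genes with several listed transcripts. Of the 12495 tested genes with 1 listed transcript, 22.0% were at least 4-fold higher in root and 26.3% at least 4-fold higher in leaf. Of the 3673 genes with 3 or more transcripts, 8.0% and 17.6% were. Genes with more transcripts also had higher levels, with a median mean CPM of 44.2 against 10.7. Within one class of level, 16 to 64 CPM, the shares for genes with 1 transcript were 17.9% in root and 21.9% in leaf, and for genes with 3 or more they were 4.42% and 16.6%. In that class the root share was thus several times lower among genes with many transcripts, and the leaf share was lower to a smaller degree. By gene length, in 5 classes of equal size, the share at least 4-fold higher in root went from 23.9% in the class of up to 1025 bases to 9.64% in the class from 2605 bases. The matching leaf shares were 30.1% and 19.7%. These length classes were not split by level. Over the classes of level, the share called and at least 4-fold apart ran from 75.9% under 1 CPM to 32.1% at 16 to 64 CPM. The share under 1 CPM is in large part set by the filter on low counts. A gene that scarce on average mostly passed that filter through its higher organ alone, so it had to be low in the other. The part of level in the shares by length was not tested. No test was made over genes here, and the part of annotation completeness in these shares was not tested.

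The IDs come in 2 forms, and these differed in their lean. Of the 3171 tested genes with an ID of the form orange1.1tN (N stands for digits), 35.0% were higher in root and 49.0% higher in leaf, with a median log2 fold change of -0.46. For the 16748 genes of the form CsNgN the shares were 41.1% and 42.6%, with a median of -0.04. Among the 9 starts from Cs1g to Cs9g the median ran from -0.17 for Cs2g to 0.08 for Cs6g, all well above the orange1.1t genes. Counts that are not whole numbers arise when reads are divided between genes, and genes with such counts were more common among orange1.1t IDs, at 45.9% against 25.1%. Among orange1.1t genes the median log2 fold change was -0.80 for those with fractional counts and -0.23 for those whose counts were whole in all 4 libraries. Among CsNgN genes the medians were close, -0.10 for fractional and -0.03 for whole counts. Genes with fractional counts are uncertain one by one, because estimated counts depend on how the reads were divided.

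Neighbouring IDs were called together more often than IDs at large. Of 2950 CsNgN genes at least 4-fold higher in root, 27.1% were followed by a tested ID that was also at least 4-fold higher in root, against 17.6% of all tested CsNgN genes. For leaf the values were 30.5% of 3802 genes against 22.7%. Among pairs of IDs whose counts were whole in all 4 libraries the excess was smaller, 22.6% against 16.1% in root and 26.1% against 21.1% in leaf. An excess was thus present also among genes with whole counts. Over all tested CsNgN genes, the longest unbroken run of genes at least 4-fold higher in one organ was 13 IDs for each organ, starting with Cs4g for root and with Cs9g for leaf. Genes in a run are not independent, and no test was made over them.

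The tables hold a second readout, the length of a gene in each library. For all 17502 genes with 1 listed transcript this length was the same wherever the gene was listed (0 differed). For genes with several transcripts it differed between libraries, as a length averaged over transcripts by their abundance would, and a difference in it is read here as a difference in the mix of transcripts to which reads were assigned. This comparison was added after the tables had been seen. It used the 4766 genes with several transcripts and at least 100 counts in each of the 4 libraries, of which 254 had identical lengths throughout and 4512 were tested with limma on log2 length.

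Where the lengths differed they were more often longer in leaf. Of 4512 genes 894 (19.8%) were called longer in leaf and 385 (8.53%) longer in root, at an adjusted p under 0.05. The median size of the difference was 149 bases in leaf-longer and 149.6 bases in root-longer genes, and 336 and 146 genes differed by at least 200 bases. Over all 4512 genes 63.1% had the larger mean in leaf, with a median difference of -4.69 bases (root minus leaf), so the lean was general but mostly small. The counts depend on having both replicates. With 1 library left out they fell to 283 to 359 genes longer in leaf and 98 to 251 longer in root, and they were 382 and 166 with a replicate block, with leaf ahead in each of these fits. Without root replicate 1 they were 288 and 98, without root replicate 2 they were 283 and 101, without leaf replicate 1 they were 359 and 251, and without leaf replicate 2 they were 333 and 238.

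**Figure D5:**
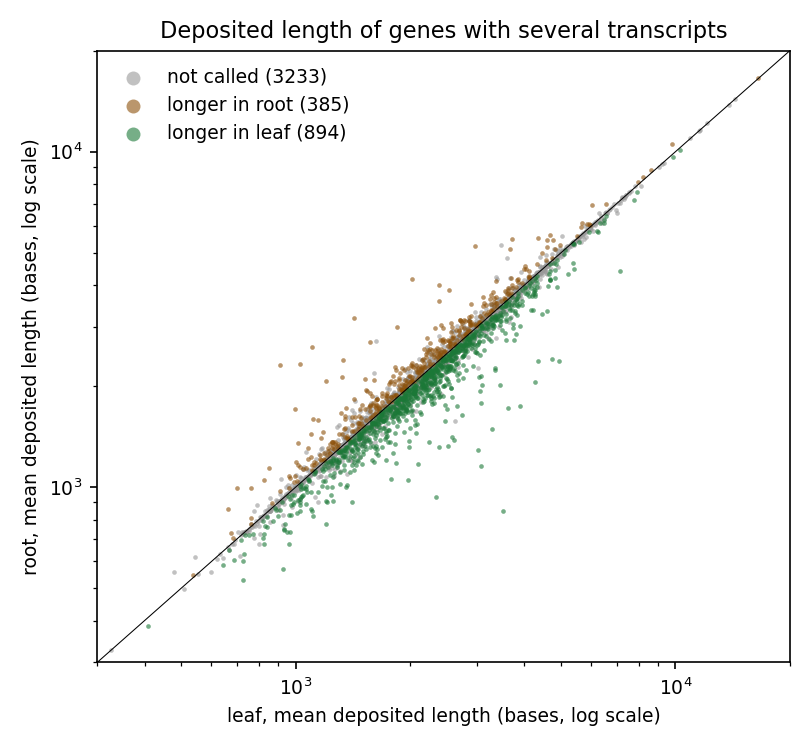
Mean deposited length in root (y axis) and leaf (x axis), both in bases on a log scale, of 4512 genes with several listed transcripts. The line marks equal lengths; the 894 genes called longer in leaf lie below it and the 385 called longer in root lie above it.

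A change in length was not tied to a change in level in one direction. Of the genes longer in leaf 54.7% were called higher in root and 28.2% higher in leaf, and of those longer in root 48.6% and 36.1%. Genes whose length was not called split 49.95% and 30.3%. In each of these groups, which hold genes well expressed in both organs, calls higher in root outnumbered calls higher in leaf.

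The largest differences in bases, in genes singled out after their values were seen, came from one gene of each kind. Cs8g19660 had a length of 4437 and 4397 bases in the root libraries and 6951 and 7298 bases in the leaf libraries. Its difference on the log2 scale of length was -0.69 ± 0.03 (SE, adjusted p = 0.0069, limma). Its level differed little, at 54.2 and 65.2 CPM in roots against 49.7 and 50.4 CPM in leaves, and was not called (log2 fold change 0.25 ± 0.12 SE, with adjusted p = 0.068 in the edgeR test). On this reading the mix of its 3 listed transcripts differed between the organs at a similar total level.

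Cs3g27030 went the other way in length. It had 5177 and 5260 bases in the root libraries and 2999 and 2927 bases in the leaf libraries, a log2 difference of 0.82 ± 0.02 (SE, adjusted p = 0.0029, limma). Here the level changed as well, at 75.0 and 69.6 CPM in roots and 403 and 406 CPM in leaves (log2 fold change -2.48 ± 0.10 SE, with adjusted p = 9.1e-08 in the edgeR test). The organ with the greater length, root, was the one with the lower level.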

How the data were processed

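RNA-seq tables of 2 root and 2 leaf libraries of Cj+LL trees were used, and the other 8 libraries were not used here. Per the labels' protocols, mRNA was captured on oligo(dT) beads and primed with random hexamers. The aligner, counter, annotation, genome build and strandedness are not named (not given in the sources used here), so overlapping and near-identical genes are uncertain. Per the file headers, each deposited table gives an expected (estimated) count, an FPKM and a length per gene. As deposited, the expected counts carry no depth scaling. Between 74.1% and 75.8% of them were whole within 0.005. FPKM values were scaled by the authors for length and library size, per the file headers. Only values above 0 are listed, and a missing gene was taken as 0. Totals ran from 9629543 to 11261359, and precision from depth covers counting error only.

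Counts were rounded and tested with edgeR 4.0.16 (quasi-likelihood, TMM, filterByExpr, R 4.3.3) in a model with organ as its only term, which leaves 2 residual degrees of freedom plus a prior of 6.15. Of 25060 IDs, 19919 were tested and 5141 were not. Calls use Benjamini-Hochberg adjusted p under 0.05, and standard errors are the log2 fold change over the square root of F. Where an organ has only a few counts, this standard error and the interval from it are too small. Lengths were tested with limma 3.58.1 on the log2 scale. Alternatives were DESeq2 1.42.0, limma on log2(FPKM + 1) and log2(FPKM + 0.1) over the same genes, other scalings and filters, each library left out, and a replicate block. The fits were tested on simulated counts in which only a small share of the genes changed. Most tested genes were called here, so that simulation cannot show how the scaling and the calls behave in these data.

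The named genes are, per direction, the one with the highest CPM and the one with the largest fold change among called genes whose mean log2 CPM is 3 or more, with no overlap between organs and, for the fold, more than 3 counts in the lower organ. The comparison and this rule were chosen with earlier results of these data known. Replicates differed beyond sampling noise, with a chi-square per degree of freedom of 2.90 in roots and 9.68 in leaves, so none was merged.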

Additional observations from a re-analysis of the deposited data

How the results depend on the processing

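The number of genes called was 16685 and ran from 15121 to 17292 with 1 library left out, was 15307 by DESeq2 and 16527 with the replicate number of the titles as a replicate block. The deviations of same-numbered libraries had a correlation of -0.0017 over 12130 genes, so the numbers are not known to pair the libraries. The log2 fold changes of the 4 named genes kept their direction and their call in every alternative that could give one. The test against a 2-fold difference left 5123 of the genes higher in root, and limma on log2(FPKM + 1) gave 2013 genes at least 4-fold higher in root. That fit has both a larger pseudocount and no TMM, and log2(FPKM + 0.1) gave 2776 and edgeR with library size only 2821. For length, a minimum of 300 counts gave 852 genes, 583 of them longer in leaf, on fewer genes tested; the replicate block gave 548 (166 longer in root, 382 in leaf) and leaving out 1 library 384 to 610 (98 to 251 and 283 to 359), with fewer degrees of freedom. As shares of summed FPKM the top gene, top 10 and top 100 held 3.84%, 8.43% and 21.8% in roots, and the top gene, top 10, top 100 and top 1000 held 0.843%, 5.63%, 17.6% and 45.0% in leaves, with 1339 genes holding 50%. Without the top gene, the next gene, top 10, top 100 and top 1000 held 1.48%, 4.30%, 16.1% and 48.7% in roots and 0.530%, 3.21%, 13.7% and 40.7% in leaves, with 1065 and 1623 genes holding 50%. Genes listed in one organ numbered 672 in root and 820 in leaf with at least 5 counts, 350 and 506 with 20, and 130 and 236 with 100. Counting calls at least 4-fold apart, the next ID was called the same way for 27.1% in root and 30.5% in leaf, where the shares of all IDs were 17.6% and 22.7%. Over all calls it was 46.6% and 48.0%, where the shares of all IDs were 41.1% and 42.6%. Depth limits genes at or under 3 counts in an organ, where the fold is not determined.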
